A study of Mus musculus with 8 samples.

Results

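The genes described here are 40 mouse genes of germ cells and meiosis, among them the transcription factor gene Tcfl5, chosen by name. The choice was made with earlier results of these data known, so finding Tcfl5 changed among the 40 is no independent result. All 40 were found among the 55487 gene identifiers of the tables. They were read by RNA sequencing in pancreatic beta cells, which make insulin, after these had been sorted by flow cytometry from islets. There were 4 libraries of genotype Control and 4 of genotype Chd4KO, and every library title carried its own number beside the replicate number. The mice of both groups had received tamoxifen, and the design text calls the knockout mice Chd4Db. Which Cre line and alleles they carried, their strain, age and sex are not given in the sources used here. The labels do not state that each library is a separate mouse, so p-values measure the spread between these libraries, which may be technical. Levels are in TPM, which scales reads by gene length and makes every library sum to the same total.

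Germ cells use a set of genes that other tissues keep off. Some of them build the synaptonemal complex that holds homologous chromosomes together in meiosis, some cut and repair DNA for recombination, and some load PIWI proteins with piRNAs, small RNAs that silence transposons in the germ line. In somatic cells many of these genes are held silent by DNA methylation and by repressor complexes at CpG-rich promoters. Chd4 is the nucleosome-moving helicase of NuRD, a complex that also removes acetyl groups from histones. The comparison asked which of these genes were silent in Control beta cells and detected once Chd4 was deleted, and whether these were many genes or single ones.

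Tcfl5 was the 1 gene of the 40 that passed. Tcfl5, a helix-loop-helix transcription factor found mainly in male germ cells, was near silent in Control and rose about 300-fold in Chd4KO beta cells, from 0.0889 ± 0.0352 to 26.7 ± 12.8 TPM (SD, n = 4 each). The DNA recombination nuclease gene Spo11 had no read in Control and 39 reads in Chd4KO, at a level under 1 TPM. Of the other 38 genes none separated the groups: in each, the ranges of the 2 groups overlapped or both groups were at 0. The share of all genes whose groups do not overlap is not given here, so this describes the 40 genes alone. Of the 5 genes abundant enough for the test across all genes, 4 did not pass and 1 rose, Tcfl5, which entered through Chd4KO alone. In that test 2.97% of all genes passed in either direction, 1.53% as higher and 1.44% as lower in Chd4KO (233 and 218 of 15189 genes, or 466 and 289 after quantile normalisation).

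**Figure D1:**
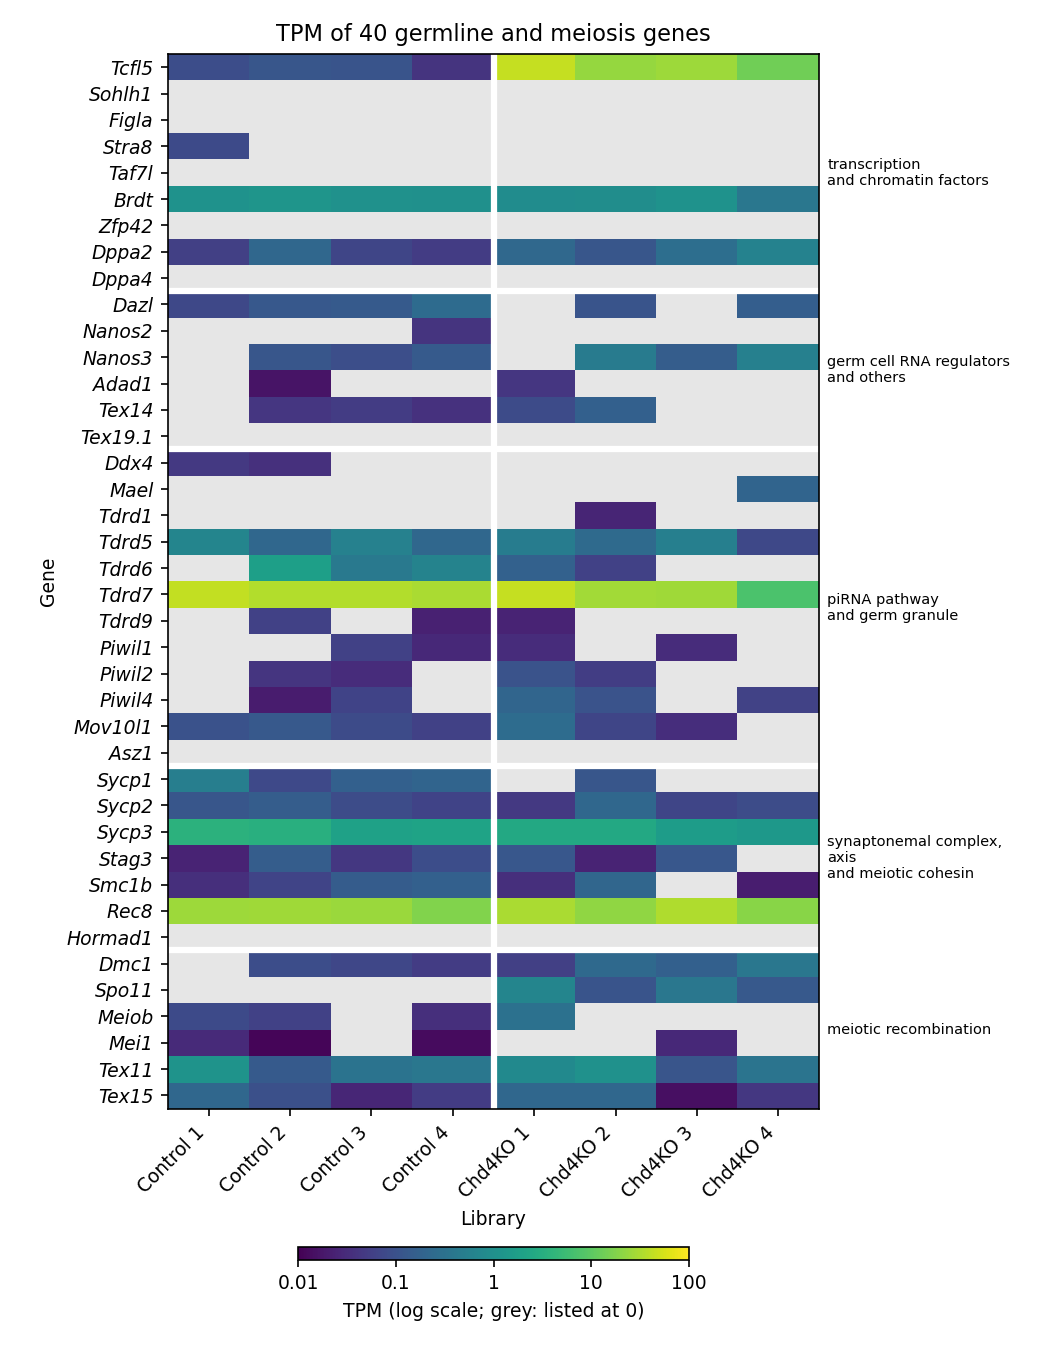
TPM of each of the 40 genes (rows, grouped by role) in each library (columns), on a logarithmic colour scale with values of 0 in grey. Tcfl5 changes colour between the 4 Control and the 4 Chd4KO libraries, from at most 0.119 TPM to at least 13.5 TPM, and Spo11 from grey to at least 0.108 TPM, while Tdrd7 and Rec8 are bright in both groups and most rows are dark or grey throughout.

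The promoters of 3 genes are printed because these genes show 3 of the outcomes seen in the data. Tcfl5 was near silent in Control and rose, Rec8 was expressed in both groups, and Ddx4 was near silent in both. Spo11, the other gene that separated the groups, had no promoter among those available. The sequences run from 250 bases before to 50 bases after the start of the gene, are from RefSeq on GRCm38.p6 (the mm10 build), and are written 5′ to 3′ on the gene's strand. Capitals mark the letters GCGGGA or its reverse complement, a core of sites of E2F factors, and CACGTG, the E-box. Tcfl5 lies at chr2:180642642-180642941 on the minus strand, Rec8 at chr14:55617916-55618215 on the plus strand and Ddx4 at chr13:112652261-112652560 on the minus strand.
Tcfl5: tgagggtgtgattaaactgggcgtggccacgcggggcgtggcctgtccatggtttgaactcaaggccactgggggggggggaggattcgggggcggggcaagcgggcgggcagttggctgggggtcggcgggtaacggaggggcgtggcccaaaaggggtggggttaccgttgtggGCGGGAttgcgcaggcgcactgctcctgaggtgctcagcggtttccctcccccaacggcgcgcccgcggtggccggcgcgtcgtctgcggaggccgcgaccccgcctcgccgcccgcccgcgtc
Rec8: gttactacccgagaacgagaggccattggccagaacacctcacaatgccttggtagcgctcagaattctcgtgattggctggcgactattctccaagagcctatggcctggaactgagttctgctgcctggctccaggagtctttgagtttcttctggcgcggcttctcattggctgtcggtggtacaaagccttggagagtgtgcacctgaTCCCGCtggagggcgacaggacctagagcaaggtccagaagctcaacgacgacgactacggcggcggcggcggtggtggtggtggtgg
Ddx4: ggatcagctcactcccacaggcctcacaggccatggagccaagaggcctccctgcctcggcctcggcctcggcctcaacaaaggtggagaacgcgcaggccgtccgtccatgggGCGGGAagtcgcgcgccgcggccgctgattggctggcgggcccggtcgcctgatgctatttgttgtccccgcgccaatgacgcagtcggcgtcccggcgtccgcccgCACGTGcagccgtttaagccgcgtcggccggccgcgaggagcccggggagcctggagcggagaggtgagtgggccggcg

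All 3 promoters are rich in CpG dinucleotides. The ratio of observed to expected CpG was 0.918 for Tcfl5, 0.716 for Rec8 and 0.978 for Ddx4, against a median of 0.415 over the 27025 genes of the promoter table. Tcfl5 and Rec8 each held 1 match to GCGGGA and no E-box, and Ddx4 held 1 match to each. Promoters were in the table for 31 of the 40 genes, and where a gene had several, a match in any was counted and the highest CpG ratio was taken. GCGGGA (on the other strand TCCCGC) was found in 13 of the 31 (41.9%) and in 22.1% of all genes in the table. CACGTG, which reads the same on both strands and can share an end base with GCGGGA, was found in 13 (41.9%) and in 8.09% of all genes. Of 26 genes with a promoter that were too low to be tested, 10 held GCGGGA, 11 held CACGTG and 5 held both. A CpG ratio of at least 0.6 was reached by 18 of the 31 (58.1%) and by 38.4% of all genes. A match describes the letters and does not show a bound site. Ddx4, near silent in both groups, had a CpG ratio of 0.978 beside 0.918 for Tcfl5, and each held 1 GCGGGA match. Ddx4 is a single example, and the median CpG ratio of the 26 genes too low to be tested was 0.625.

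Among the factors of transcription and chromatin, Tcfl5 (ENSMUSG00000038932, mm10 chromosome 2, 180621956 to 180642708) had Control levels of 0.0892, 0.119, 0.108 and 0.0396 TPM, in order of replicate. The Chd4KO levels were 44.1, 23.6, 25.6 and 13.5 TPM. All Chd4KO libraries were high and all Control libraries near 0, and the groups did not overlap. In reads recovered from TPM and gene length, these were 2, 7, 4 and 2 reads in Control and 1012, 527, 584 and 507 reads in Chd4KO. The change on the log2(TPM + 1) scale was 4.55 ± 0.31 (SE, limma adjusted p = 0.00035), or 4.81 relative to the median of all tested genes, which was -0.25. By size of the change Tcfl5 ranked 5 among 15189 tested genes. By mean TPM it ranked 23343 of all genes in Control and 3290 in Chd4KO. It entered the test through its Chd4KO libraries alone, since no Control library reached 1 TPM. Such entry fixes the separation of the groups, so the p and the rank describe the change and are no separate support for it.

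None of the other 8 genes of this role separated the groups. In the main analysis only Brdt, by limma, and Dppa2, by permutation, were tested, and neither passed. The rest had 1 read or none. Brdt, a testis bromodomain protein that reads acetylated histones, stood at 1.08, 1.21, 1.05 and 1.02 TPM in Control and at 0.890, 0.913, 1.08 and 0.380 TPM in Chd4KO (log2 change -0.22 ± 0.18, SE, limma adjusted p = 0.543). The groups overlapped. Dppa2, a chromatin factor of early embryos and germ cells, stood at 0.0577, 0.221, 0.0697 and 0.0512 TPM in Control and at 0.226, 0.116, 0.283 and 0.586 TPM in Chd4KO. Those values came from 1 to 10 reads per Control library and 2 to 17 per Chd4KO library, and they overlapped (exact permutation p = 0.0571, two-sided). Stra8, which starts meiosis in response to retinoic acid, had 1 read in Control replicate 1 and none elsewhere. Sohlh1 and Figla, germ cell helix-loop-helix factors like Tcfl5 in their DNA-binding fold, had no read in any library. Taf7l, a testis form of a general transcription factor subunit, and Zfp42 and Dppa4, genes of pluripotent cells, had none either.

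**Figure D2:**
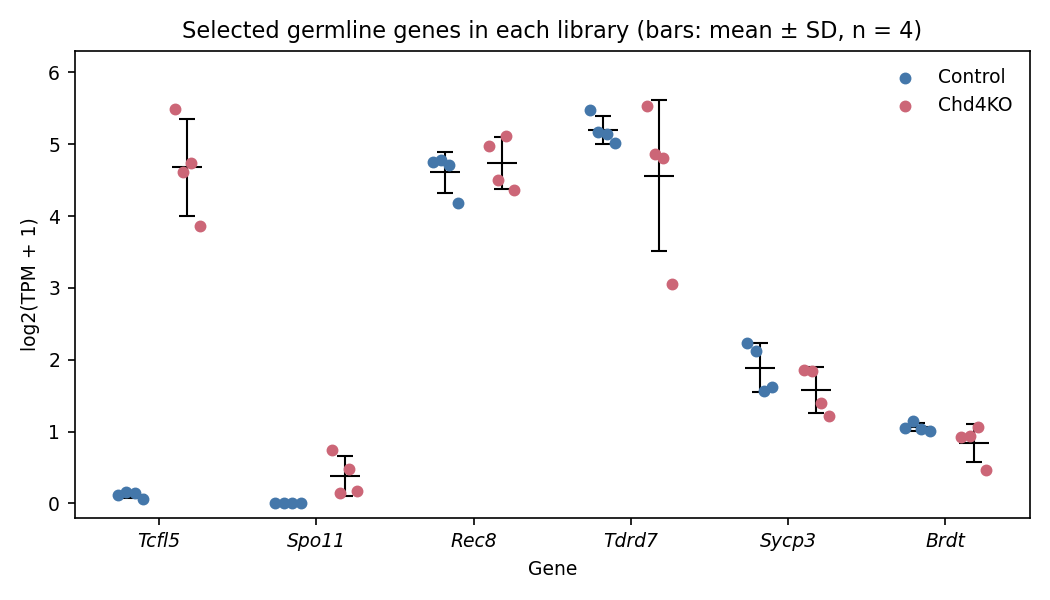
Levels of 6 genes on the log2(TPM + 1) scale, with 1 point per library and the mean ± SD of each group of 4. The Chd4KO points of Tcfl5 and Spo11 lie above all their Control points, and for Rec8, Tdrd7, Sycp3 and Brdt the groups overlap.

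Meiotic recombination begins with breaks made by Spo11, and this was the other gene that separated the groups. Spo11 (chromosome 2, 172977700 to 172993576) had 0 reads in each of the 4 Control libraries and 19, 3, 11 and 6 reads in Chd4KO replicates 1 to 4. Its TPM in Chd4KO was 0.669, 0.108, 0.389 and 0.129, so every knockout library lay above every Control library, but none reached 1 TPM. With reads pooled over each group and scaled by the reads in genes, Spo11 in Chd4KO stood 22.8-fold above a floor of 3 reads over the Control group. Most of the pooled Chd4KO reads came from replicates 1 and 3, so this is no lower bound for each library. No permutation p is given for it, since Spo11 met the minimum for that test through its 4 Chd4KO libraries alone, which fixes the separation of the groups. Fitted with a lower TPM minimum or none, Spo11 had limma adjusted p-values of 0.309 and 0.273 and did not pass. Of the protein-coding genes with no read in any Control library, 0.715% had a read in every Chd4KO library. The rule of reads was chosen after the values of Spo11 had been seen.

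The 5 other recombination genes were low in both groups and overlapped. Dmc1, which pairs a broken strand with the homologous chromosome, had 0 to 4 reads in Control libraries and 1 to 11 in Chd4KO libraries, or at most 0.381 TPM. Tex11, an X-linked gene needed for crossovers, spanned 0.134 to 1.13 TPM in Control and 0.115 to 1.05 TPM in Chd4KO (exact permutation p = 0.886, two-sided). Tex15, which acts in meiotic repair and transposon silencing, spanned 0.0266 to 0.220 and 0.0144 to 0.221 TPM. Meiob, a DNA-binding protein of recombination sites, had 4 reads in Control and 4 in Chd4KO, all of the latter in replicate 1. Mei1, needed for the breaks themselves, had 3 reads in Control and 1 in Chd4KO.

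In the role of the synaptonemal complex, the chromosome axis and meiotic cohesin, Rec8 and Sycp3 were expressed in beta cells of both groups. Rec8, the cohesin subunit that replaces its mitotic form in meiosis, stood at 26.1, 26.4, 25.2 and 17.2 TPM in Control and at 30.5, 21.8, 33.8 and 19.6 TPM in Chd4KO. The groups overlapped (difference of 0.14 ± 0.24 on the log2 scale, SE, limma adjusted p = 0.765). Sycp3, a protein of the chromosome axis, stood at 3.69, 3.37, 1.96 and 2.08 TPM in Control and at 2.62, 2.58, 1.64 and 1.34 TPM in Chd4KO (log2 change -0.31 ± 0.24, SE, limma adjusted p = 0.518). Of its exon bases, 52.2% are shared with Chpt1 on the opposite strand, and libraries of this kind do not mark strand, so reads in those bases cannot be told apart from those of Chpt1. Sycp1, which forms the transverse filaments of the complex, had 13, 5, 7 and 11 reads in Control and 0, 3, 0 and 0 in Chd4KO. It stood at 0.238 ± 0.192 and 0.0299 ± 0.0597 TPM (SD, n = 4 each, exact permutation p = 0.0571, two-sided), and the groups overlapped in Chd4KO replicate 2. Sycp2, Stag3 and Smc1b, an axis protein and cohesin subunits, each stayed at or under 0.213 TPM in every library. Hormad1, which marks unpaired axes, had no read.

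Of the 12 genes of the piRNA pathway and the germ granule, Tdrd7 was the 1 above the threshold for testing. Tdrd7, a Tudor-domain protein also made in the lens and other somatic tissues, stood at 43.5, 35.1, 34.2 and 31.5 TPM in Control and at 45.1, 28.0, 27.1 and 7.32 TPM in Chd4KO. The values overlapped, and the lowest came from Chd4KO replicate 4, the library with the largest share of insulin transcripts (log2 change -0.64 ± 0.46, SE, limma adjusted p = 0.49). Tdrd6, a further Tudor protein of germ granules, was uneven among Control libraries, at 0, 1.80, 0.410 and 0.621 TPM, and stood at 0.176, 0.0601, 0 and 0 TPM in Chd4KO (exact permutation p = 0.143, two-sided). Tdrd5 spanned 0.217 to 0.672 TPM in Control and 0.0730 to 0.539 TPM in Chd4KO (exact permutation p = 0.6, two-sided).

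The PIWI proteins themselves and the helicase that marks germ cells stayed near 0. Piwil1, Piwil2 and Piwil4, which carry the piRNAs, had at most 8 reads in any library. Their highest value was 0.205 TPM, of Piwil4 in Chd4KO replicate 1. Ddx4, the germ cell helicase Vasa, had 3 reads in Control and 0 in Chd4KO. Mov10l1, a helicase that feeds piRNA precursors to PIWI, spanned 0.0599 to 0.129 TPM in Control and 0 to 0.264 TPM in Chd4KO. Tdrd9 had 8 reads in Control and 1 in Chd4KO, and Tdrd1 had 1 read in all, in Chd4KO replicate 2. Mael, which acts with PIWI in the nucleus, had 4 reads, all in Chd4KO replicate 4. Asz1, a protein of the germ granule at mitochondria, had no read.

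Among the RNA regulators of germ cells, none was high enough to be tested. Dazl, which switches on translation in germ cells, had 2, 9, 6 and 15 reads in Control and 0, 3, 0 and 7 in Chd4KO. At 0.145 ± 0.0723 and 0.0665 ± 0.0788 TPM it overlapped between the groups (SD, n = 4 each, exact permutation p = 0.229, two-sided). Nanos3, which protects early germ cells, had 0 to 2 reads in Control libraries and 0 to 6 in Chd4KO libraries (exact permutation p = 0.229, two-sided). Nanos2, of male germ cells, had 1 read, in Control replicate 4, and shares 49.0% of its exon bases with Gm45058 on the opposite strand. Tex14, which keeps bridges between germ cells open, had 10 reads in Control and 9 in Chd4KO. Adad1, an RNA-binding protein of the testis, had 1 read in each group. Tex19.1, a placental and germ cell gene that restrains transposons, had no read.

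Counted over all 40, the numbers of genes detected overlapped between the groups. At 1 TPM or more, 4 to 5 of the genes were detected in each Control library and 4 to 5 in each Chd4KO library. Sycp3, Tdrd7 and Rec8 reached 1 TPM in all 8 libraries. At least 1 read was found for 19 to 26 genes in Control and 17 to 23 in Chd4KO. Control libraries were deeper, at 16.4 to 41.0 M reads in genes against 14.9 to 20.2 M, so the number expected at the depth of the shallowest library was computed for each. Control libraries had 20.3 ± 1.61 expected genes and Chd4KO libraries 19.8 ± 3.36 (SD, n = 4 each), and the ranges of 18.4 to 22.2 and 16.7 to 22.95 overlapped. Over the 35 genes left out of the test, summed levels were 2.95 ± 0.587 TPM in Control libraries and 3.01 ± 0.891 TPM in Chd4KO libraries (SD, n = 4 each). Among these 35, the mean was higher in Chd4KO for 13, lower for 14 and 0 in both for 8.

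**Figure D3:**
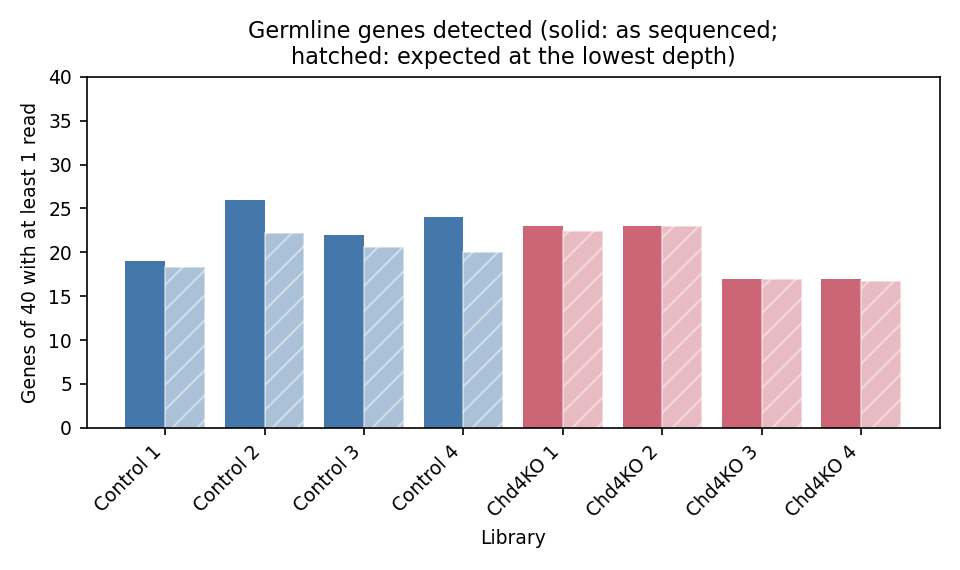
Number of the 40 genes with at least 1 read in each library, as sequenced (solid bars) and the number expected at the depth of the shallowest library (hatched bars). The hatched bars span 18.4 to 22.2 in Control and 16.7 to 22.95 in Chd4KO.

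A gene was called near silent in Control when it stood under 0.5 TPM in each of the 4 libraries, and detected in Chd4KO when it reached 1 TPM in each. By this rule 32 of the 40 genes were near silent in Control, and Tcfl5 was the 1 of them detected in Chd4KO. Over all genes 0.18% of those near silent in Control were detected in Chd4KO, and 0.503% of the protein-coding ones. That background is 46 of 9146 protein-coding genes, and a single member does not show that the 40 differ from it. Tcfl5 was also put on the list with earlier results of these data known. In the opposite direction no germline gene qualified, and 0.058% of protein-coding genes near silent in Chd4KO were detected in Control. With limits of 0.1 and 0.5 TPM no germline gene qualified, because Tcfl5 stood at 0.119 and 0.108 TPM in Control replicates 2 and 3. With each library left out in turn, Tcfl5 remained the 1 gene of the 40 that qualified. Fewer cells expressing a gene and less RNA per cell cannot be told apart in such bulk samples, and the same holds for more.

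**Figure D4:**
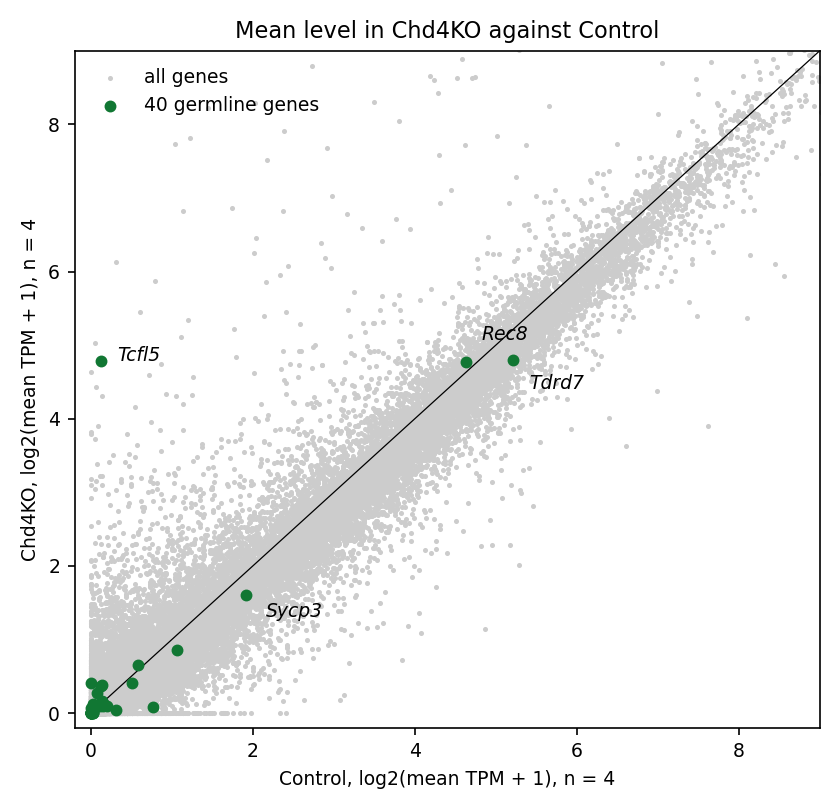
Mean level in Chd4KO (vertical) against Control (horizontal), each as log2(mean TPM + 1) over 4 libraries, for all genes (grey) and the 40 germline genes (green), up to 9 on each axis, with higher genes left out; the line marks equal levels. Tcfl5 lies near the left edge at a mean of 26.7 TPM in Chd4KO, and the other green points lie near the line or near the origin.

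Other genes of the same pathways numbered 84. Of them 21 were tested with limma, 0 rose, 2 fell and 19 did not pass. Over all tested genes 1.53% were called as higher and 1.44% as lower. At such shares 0 of 21 as higher does not set these genes apart. At an unadjusted p under 0.05, 0 of the 21 were higher and 5 lower. All genes tested gave 2460 of 15189 in both directions together, and their split by direction is not given here. With limma's voom on recovered reads, 0 of the 21 were called as higher and 1 as lower. Among 25 further meiotic chromosome genes 8 were tested, with a median log2 change of -0.16 beside -0.25 for all tested genes. Syce2, a central element protein of the synaptonemal complex, fell to 8.97 ± 1.49 TPM from 20.3 ± 5.79 TPM (SD, n = 4 each; difference of -1.07 ± 0.23 on the log2 scale, SE, limma adjusted p = 0.0401). Syce2 was called in 3 of 16 alternatives, with an adjusted p of 0.0184 to 0.235. Among 13 further piRNA genes 4 were tested, with a median of -0.66. Tdrkh, which tethers PIWI proteins to mitochondria, fell to 1.97 ± 0.491 TPM from 7.67 ± 1.36 TPM (SD, n = 4 each; difference of -1.55 ± 0.20 on the log2 scale, SE, limma adjusted p = 0.00391). Tdrkh was called in all 16 alternatives. It shares 36.7% of its exon bases with Oaz3 on the opposite strand.

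The germ cell and pluripotency regulators and the late spermatid genes gave no call. Of 20 regulators 2 were tested, Sall4 at 3.68 ± 1.20 and 3.51 ± 1.55 TPM (SD, n = 4 each, limma adjusted p = 0.871) and Nanos1 at 1.56 ± 0.173 and 1.85 ± 0.884 TPM (limma adjusted p = 0.813). Of 26 late spermatid genes 7 were tested. Crem, an activator of spermatid genes that other tissues express too, stood at 20.8 ± 1.86 and 14.98 ± 6.02 TPM (limma adjusted p = 0.37), and Odf2, of the sperm tail and the centrosome, at 14.1 ± 0.631 and 14.8 ± 7.03 TPM (limma adjusted p = 0.918). Near silent in Control were 49 of the 84, and 0 of these reached 1 TPM in every Chd4KO library. Of the 84, 21 had no read in Control, and 0 of these had a read in every Chd4KO library. Over all protein-coding genes the shares by these 2 rules were 0.503% and 0.715%. At such shares, 0 of 49 and 0 of 21 do not set these genes apart from the others.

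None of 23 factors that silence germline genes in other cells passed the test (limma), beside 2.97% of all tested genes in either direction. At that share 0 of 23 does not set them apart. At an unadjusted p under 0.05 (limma) there were 0 of the 23, beside 2460 of all 15189 tested genes. With limma's voom on recovered reads 0 were called. The median log2 change of the 23 was -0.32, beside -0.25 for all tested genes. The 23 include the DNA methyltransferases, the factors E2f6, Mga and L3mbtl2 of a Polycomb complex bound to germline promoters, and the deacetylases of NuRD. Hdac1 stood at 58.2 ± 7.92 and 51.7 ± 14.95 TPM (SD, n = 4 each, limma adjusted p = 0.657) and Hdac2 at 52.6 ± 7.09 and 43.9 ± 11.9 TPM (limma adjusted p = 0.533).

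Next to Tcfl5 on chromosome 2, its neighbour Col9a3 rose as well. Col9a3, a chain of collagen IX in cartilage, starts at -44.9 kb on the chromosome from the Tcfl5 start site, on the opposite strand, and its end overlaps the end of Tcfl5 by 234 bases, which are 7.39% of the exon bases of Tcfl5. It stood at 0.0366, 0.140, 0.155 and 0.130 TPM in Control and at 4.62, 3.49, 3.88 and 1.99 TPM in Chd4KO, without overlap between the groups (log2 change 1.98 ± 0.22, SE, limma adjusted p = 0.00194). Like Tcfl5, Col9a3 entered the test through its Chd4KO libraries alone. That fixes the separation of the groups, so the p is no separate support for the change. Its level in Chd4KO, per gene length, was 3.497 ± 1.11 TPM (SD, n = 4), beside 26.7 TPM for Tcfl5. Reads in the shared bases cannot be told apart without strand, and their part in the Col9a3 value was not tested.

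No other gene within 200 kb passed. Of 14 further genes whose start lies in that window, 6 were tested, Col9a3 was called and 5 did not pass, 6 were listed at 0 in all libraries and 2 were low. Dido1, on the far side of the Tcfl5 start, stood at 5.29 ± 1.97 and 4.59 ± 2.64 TPM (SD, n = 4 each, limma adjusted p = 0.714). Gid8 stood at 16.6 ± 1.57 and 19.9 ± 4.09 TPM (limma adjusted p = 0.547). Ogfr, beyond Col9a3, stood at 28.9 ± 2.21 and 31.5 ± 20.02 TPM (limma adjusted p = 0.865) and Mrgbp at 7.51 ± 1.08 and 5.78 ± 1.66 TPM (limma adjusted p = 0.46). Slc17a9, which fills vesicles with ATP, stood at 46.8 ± 5.13 and 76.2 ± 33.0 TPM (limma adjusted p = 0.397).

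**Figure D5:**
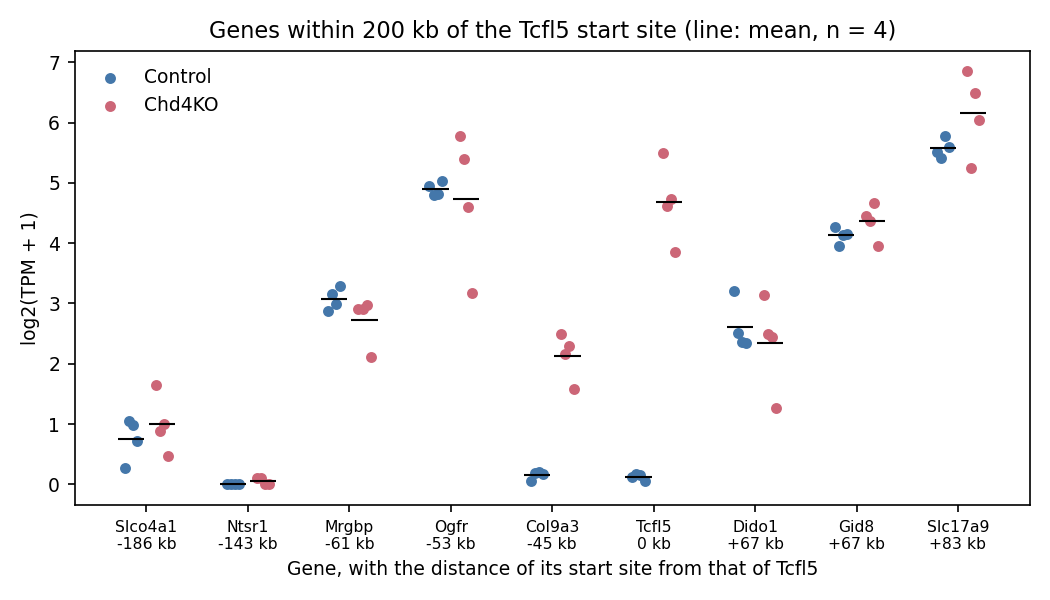
Levels on the log2(TPM + 1) scale of the genes within 200 kb of the Tcfl5 start site that had a value above 0, in order along the chromosome, with 1 point per library and a line at each mean. Col9a3 and Tcfl5 rise from near 0 in Control to 1.99 TPM or more in every Chd4KO library, and the 4 Control and 4 Chd4KO libraries overlap for the others.

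The 5 named genes whose levels over the 8 libraries were most like those of Tcfl5, by Pearson correlation of log2(TPM + 1), were Col9a3 (0.996), Ugt1a1 (0.995), C1qtnf1 (0.993), Lhpp (0.992) and Kctd17 (0.991). The 8 points fall into the 2 groups, which all 5 genes share, and the values are a description with no p. None of the 40 germline genes was among them, but only tested genes were compared, which left out 35 of the 40.

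Libraries that stand apart touch the values as follows. Chd4 stood at 11.1 to 15.98 TPM in Control and at 2.59 to 8.38 TPM in Chd4KO (log2 change -1.18 ± 0.29, SE, limma adjusted p = 0.0725), without overlap, and the files do not separate deleted from kept exons. Chd4KO replicate 4 had the lowest Chd4 level of all libraries, the lowest Tcfl5 level among the 4 Chd4KO libraries and the largest insulin share, 62.0% of TPM against 32.4 to 47.0% in the other 7 libraries. Of 10 beta cell markers Mafa and Slc2a2 fell and 8 did not pass, and none was at 0 in any library. At an unadjusted p under 0.05 (limma), 6 of the 10 were lower and 0 higher. Their median log2 change was -0.62, beside -0.25 for all tested genes. Mafa stood at 165.7 ± 12.0 and 47.0 ± 23.3 TPM (SD, n = 4 each, limma adjusted p = 0.0229). The 11 acinar markers summed to 32775 TPM in Chd4KO replicate 2 and to at most 1245 TPM in the others. Tcfl5 stood at 25.6 and 13.5 TPM in Chd4KO replicates 3 and 4, where the acinar markers summed to 3.58 and 1.83 TPM and Prss2, an acinar enzyme, was at 0.340 and 0 TPM.

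The 10 leukocyte markers summed to 35.8 to 60.9 TPM in Control and 77.3 to 112 TPM in Chd4KO. These sums did not overlap. Of the 6 tested, Cd68 and Fcer1g rose (limma adjusted p = 0.0132 and 0.0482, called in 13 and 5 of 16 alternatives) and 4 did not pass. At an unadjusted p under 0.05 (limma), 3 of the 6 were higher and 0 lower. Ptprc, a general leukocyte gene, and Cd3e, a T cell gene, were added afterwards. They reached 0.831 and 0.952 TPM in Control, both in replicate 4, and 0.158 and 0.203 TPM in Chd4KO. In Control replicates 1 and 2 they stood at or under 0.0442 and 0.0265 TPM. The part of leukocytes in the Tcfl5 result was not tested. The somatic cells of the gonads were looked at too, because they surround germ cells. Of their 11 markers 1 was tested and 0 were called (1 by limma's voom on recovered reads), and the defining genes Amh and Foxl2 stood at or under 0.0848 and 0.104 TPM in every library. The sum of the list was 3.65 to 6.45 TPM in Control and 6.82 to 34.6 TPM in Chd4KO, without overlap. Star, a gene of steroid synthesis, stood at 3.19 ± 0.861 and 14.7 ± 10.6 TPM (SD, n = 4 each, limma adjusted p = 0.0855). The part of these cells in the Tcfl5 result was not tested.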

How the data were processed

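RNA of sorted beta cells was turned into cDNA with a SMART-Seq low-input kit and into Nextera XT libraries, per the labels' protocols; such libraries do not mark strand. The deposited TPM tables hold 1 value per gene and library. FastQC, Trimmomatic, HISAT2, HTSeq and DESeq2 with build mm10 are named in the submitters' processing notes, without versions or roles, and the sources used here name no annotation release. Symbols, positions and exon lengths came from GENCODE M21 (99.5% of 55487 identifiers matched). TPM times exon length gave a whole multiple of a single step for 98.5 to 98.7% of values above 0 (tolerance 0.05 of a read), and reads were recovered that way. Exons shared by genes and lengths that differ from those of the authors leave such reads uncertain.

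Genes with at least 1 TPM in at least 4 libraries were tested with limma 3.58.1 (R 4.3.3) on log2(TPM + 1), which understates changes of low genes, with genotype as the only term, Benjamini-Hochberg adjustment over all tested genes and a limit of 0.05. The fit was tested on simulated data. Genes below the minimum but above 0.1 TPM in at least 4 libraries were compared by exact permutation tests of mean TPM, two-sided (scipy 1.17.1), except Spo11, which was above it in Chd4KO alone. With Spo11, 8 members met that minimum, and the permutation p-values were not adjusted for their number. The number of genes expected at the lowest depth used the chance that each gene keeps a read. The members and lists were chosen with earlier results of these data known. Named are all members, up to 4 called genes of each list or otherwise its 2 tested genes with the highest TPM, the neighbours of Tcfl5 and the 5 genes most like it; Chd4, Ptprc, Cd3e, Amh, Foxl2, Rhox5 and genes sharing exons were added afterwards. Of the other germline symbols, 2 were not matched in the annotation.

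Alternatives covered the pseudocount, the filter, scaling, the variance model, a replicate block, recovered reads with limma's voom, the limits of the near-silent rule, and each library left out.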

Additional observations from a re-analysis of the deposited data

Results flagged for a closer look

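In 26 groups of 4 libraries with at least 10 reads of a germline gene in 1 of them, 2 held a library far from the other 3; chance gives about 1 in 20. Rec8 stood at 17.2 TPM in Control replicate 4 (804 reads), against 25.2 to 26.4 TPM in the other Control libraries. Dppa2 stood at 0.221 TPM in Control replicate 2 (10 reads), against 0.0512 to 0.0697 TPM in the others.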

How the results depend on the processing

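Tcfl5 was called as higher under each of 16 alternatives, with a log2 change of 4.28 to 8.12 and an adjusted p of 1.18e-05 to 0.00415 (limma), and it was the 1 member called in each, also among 32 members tested with no filter. In the alternatives with the minimum of 1 TPM, Tcfl5 entered through its Chd4KO libraries alone. Sycp3, Tdrd7 and Brdt kept their sign and stayed above the limit in all 16, and so did Rec8 except for a sign of -0.0066 without Control replicate 4; leaving out 1 library gave Rec8 -0.0066 to 0.26, Sycp3 -0.41 to -0.19, Tdrd7 -0.96 to -0.14 and Brdt -0.29 to -0.091, the last 2 being nearest to 0 without Chd4KO replicate 4 (-0.64 and -0.22 with all 8 libraries). The number of genes changed was 451, and became 723 with median-of-ratios scaling (444 higher), 755 with quantile normalisation (466 higher) and 274 with the replicate block (158 higher; the deviations of same-numbered libraries correlated at -0.0244, 0.425, 0.0773 and 0.0377, and not every library did so best with its own number, so the pairing was not used); leaving out 1 library gave 171 (without Control replicate 4) to 866 (without Chd4KO replicate 4). Without Control replicates 1, 2 and 3 and Chd4KO replicate 3 it was 250, 173, 218 and 233. Over all tested genes the median change was -0.25 on the log2 scale, and -0.02 with median-of-ratios scaling and -0.05 without Chd4KO replicate 4. Of genes near silent in Control, 64 were detected in Chd4KO, and 29, 128 and 248 with limits of 0.1 and 0.5 TPM, of 1 and 1 TPM, or with 1 TPM in at least 2 Chd4KO libraries; the members counted were 0 under the first. The median number of members detected per library was 4.5 at 1 TPM in both groups, 11 (Control) and 14 (Chd4KO) at 0.1 TPM, 23 and 20 with at least 1 read, and 20.3 and 19.7 at the lowest depth. With 14.9 to 41.0 M reads a library, members with a handful of reads allow no statement on smaller changes.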

Other observations

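Rhox5, a homeobox gene of the X chromosome that is expressed in testis and placenta and is silenced by DNA methylation in other tissues, had a value of 0 in the 4 Control libraries and stood at 1.28, 0.751, 1.10 and 1.23 TPM in Chd4KO replicates 1 to 4. It was singled out after its values were seen. It fell short of the filter of the test because Chd4KO replicate 2 lay under 1 TPM, and in the 7 alternatives that tested it, it was called in 4, with an adjusted p of 0.00332 to 0.0597 (limma). Rhox5 entered each of these 7 through its Chd4KO libraries alone, so the calls are no separate support for the change.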
